A study of Mus musculus with 18 samples.

Results

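Argonaute 2 (Ago2) peaks that carry a seed match to the miR-30 family in mouse colonic epithelium are described here, with and without oncogenic K-Ras. A peak was a member when the authors' seed annotation listed miR-30 for it in any of the 4 match classes, which gave 297 of 5448 annotated peaks, in 261 genes. The HEAP assay pulls down Halo-tagged Ago2 after UV crosslinking and sequences the miRNAs and RNA fragments that it holds. G12D mice had the genotype Halo-Ago2/+, Fabp-Cre/+ and K-Ras-G12D/+, and WT mice were Halo-Ago2/+ and Fabp-Cre/+ with wild-type K-Ras. All were C57BL/6 mice of 8 to 12 weeks, so the WT mice carried the tagged Ago2 and the Cre too. The epithelium was scraped from the distal colon, which enriches for epithelial cells without purifying them, and Fabp-Cre drives recombination in intestinal epithelium. From each genotype come 3 libraries of the held miRNAs and 3 of the held mRNA fragments (pulldown mRNA); 6 input control libraries are not used here. Whether the libraries stem from separate animals is not stated in the labels, so the p-values measure the spread between libraries, which may be technical.

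The miR-30 family is one of the widely expressed miRNA families of epithelia. Its members are made from hairpins that each give a 5p and a 3p arm, and 1 arm is usually loaded into Argonaute far more than the other. A loaded miRNA finds its targets mainly through its seed, nucleotides 2 to 8, and the bound RNA is commonly repressed through deadenylation and decay. Published targets of the family lie in epithelial differentiation, the actin cytoskeleton, autophagy and O-glycosylation.

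The mature sequences show why the members fall into a pair of seed groups. Of the 12 miR-30 miRNAs in the miRNA table, 8 had a sequence in RefSeq (GRCm38.p6). These are shown with miR-384-5p, which has the same 5p seed, and capitals mark the seed.
miR-30a-5p: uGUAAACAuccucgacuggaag
miR-30c-5p: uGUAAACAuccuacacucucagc
miR-30e-5p: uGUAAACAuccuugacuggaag
miR-384-5p: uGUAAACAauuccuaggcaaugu
miR-30a-3p: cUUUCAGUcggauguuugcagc
miR-30e-3p: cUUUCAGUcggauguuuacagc
miR-30c-1-3p: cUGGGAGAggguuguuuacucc
miR-30c-2-3p: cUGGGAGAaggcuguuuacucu
miR-30f: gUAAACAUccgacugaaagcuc
The 5p arms and miR-384-5p share the seed GUAAACA. The arms miR-30a-3p and miR-30e-3p share UUUCAGU, and the authors' annotation names miR-30d-3p with them. The seed of miR-30c-1-3p and miR-30c-2-3p and that of miR-30f differ from both, and no member was annotated to any of them. A full 8-mer match, which pairs with nucleotides 2 to 8 and has an A opposite nucleotide 1, reads TGTTTACA for the 5p seed and ACTGAAAA for the 3p seed. A 7-mer-m8 match lacks that A, a 7-mer-A1 match keeps it but lacks the pair at nucleotide 8, and a 6-mer match pairs with nucleotides 2 to 7 alone. A peak is placed below by its strongest miR-30 match.

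The letters of 3 bound sites could be read, because the peaks lie beside a gene start for which RefSeq gives the sequence (GRCm38.p6). All 3 were annotated to 5′ UTRs, and capitals mark the match.
Ubl7 (5p 8-mer, chr9:57911003-57911030, plus strand): ccagagtgagTGTTTACAccggcggctc
Arl14 (5p 7-mer-A1, chr3:69222436-69222462, plus strand): tttcctaaacGTTTACAtgaaagacct
Mgat4a (3p 7-mer-A1, chr1:37536355-37536378, minus strand): cccccagcctCTGAAAActgcgaa
Of the members searched, 4 overlapped such a sequence. A site was printed only where the letters of its annotated class were found in the peak, as in these 3. The letters are therefore no check of the annotation. The Mgat4a peak, in the transcript of an N-glycan branching enzyme, had 13.1, 20.8 and 18.7 normalized reads in the G12D libraries, against 142, 58.0 and 27.1 in the WT libraries. It fell by 1.76 ± 0.55 SE on the log2 scale (limma adjusted p = 0.0196), with all G12D libraries below all WT libraries. The Ubl7 peak had 8.72, 14.6 and 28.0 normalized reads in G12D and 21.2, 5.80 and 5.16 in WT, and its groups overlapped. The Arl14 peak was too low to be tested, with 53 reads in the G12D libraries together and 1 in the WT libraries.

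Both arms had about as many peaks, but not of the same kind. The 5p seed had 146 peaks, of which 51 held an 8-mer, 37 a 7-mer-m8, 25 a 7-mer-A1 and 33 a 6-mer. The 3p seed had 151 peaks, of which 10 held an 8-mer, 34 a 7-mer-m8, 25 a 7-mer-A1 and 82 a 6-mer. For comparison, peaks with a let-7 entry comprised 264 with an 8-mer and 62 with a 6-mer, those of miR-194 comprised 138 and 186, and those of miR-200b/c and miR-429 comprised 153 and 82. Wherever miR-194 is named without an arm, it pools miR-194-5p, with 126 8-mer peaks, and the separate seed entry of miR-194-2-3p, with 14. The proportion of 8-mers to 6-mers among 3p peaks was thus below that of the 5p seed and of all 3 other families. How often each word occurs in unbound transcripts was not tested.

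The miRNA libraries held 337788 to 433245 reads in G12D and 437439 to 535932 in WT, and in every library the 5p arms far exceeded the 3p arms. The 5 arms miR-30a-5p to miR-30e-5p together made up 9.87%, 9.60% and 12.1% of the normalized miRNA reads in G12D and 10.1%, 12.2% and 9.43% in WT. The 3 arms miR-30a-3p, miR-30d-3p and miR-30e-3p made up 0.0527%, 0.0355% and 0.0616% in G12D and 0.0478%, 0.0741% and 0.0671% in WT. The 5p to 3p ratio lay between 140 and 270 in the 6 libraries. The share loaded as 5p arms overlapped between the genotypes.

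**Figure D1:**
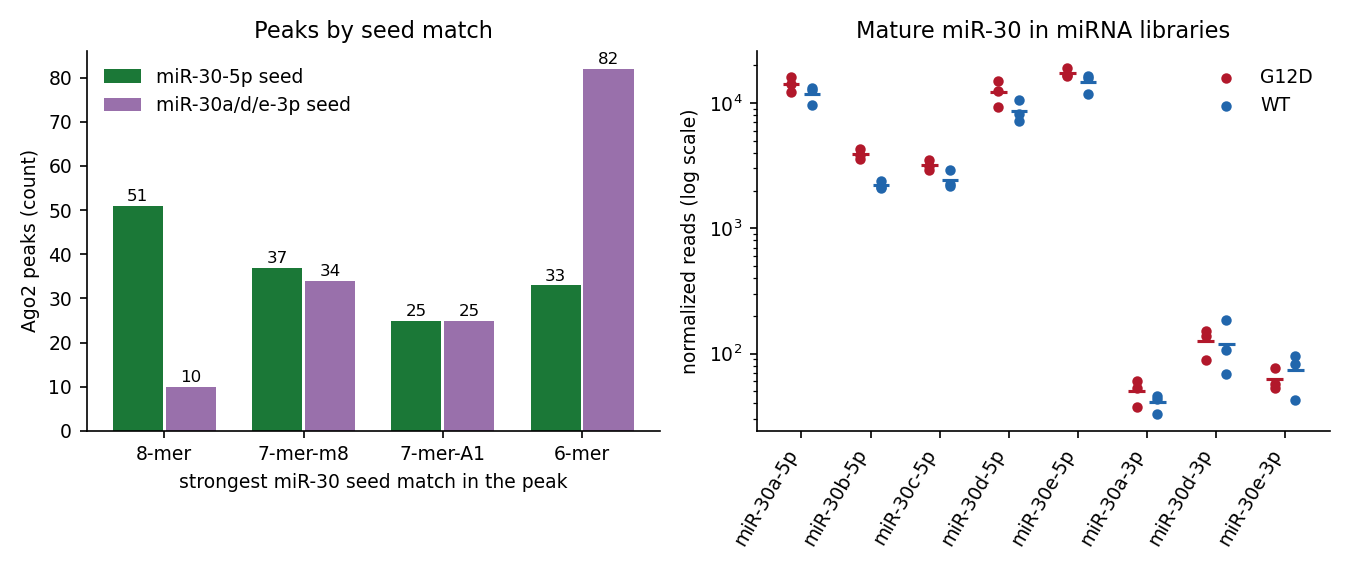
Left, number of Ago2 peaks (y axis) by strongest miR-30 seed match (x axis) for the 5p and the 3p seed; right, normalized reads of each mature miR-30 arm on a log scale, with points for libraries, bars for means, G12D in red and WT in blue. The 5p seed has 51 8-mer peaks against 10 for the 3p seed, while the 3p seed has 82 6-mer peaks, and every 5p arm lies far above every 3p arm.

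Of the miR-30 miRNAs, miR-30b-5p alone was called. It had 4252, 3562 and 3840 normalized reads in G12D, against 2084, 2379 and 2140 in WT, a log2 fold change of 0.82 ± 0.23 SE (limma adjusted p = 0.0108). Among all 254 miRNAs tested limma called 9.06% higher and 6.69% lower. The call of miR-30b-5p ended when all libraries were set to 1 common total (0.45, limma adjusted p = 0.157), without limma's variance trend (limma adjusted p = 0.0707) and without G12D replicate 1 (0.75, limma adjusted p = 0.0715). The most abundant arm, miR-30e-5p, averaged 17383 ± 1396 normalized reads in G12D and 14667 ± 2451 in WT (SD, n = 3 each), a log2 fold change of 0.26 ± 0.18 SE that was not called. miR-30a-5p, miR-30c-5p and miR-30d-5p were not called either, at 0.26, 0.39 and 0.49. miR-30d-5p was called higher without G12D replicate 1 (0.67, limma adjusted p = 0.0489) or WT replicate 2 (0.65, limma adjusted p = 0.0178). Of the 3p arms, miR-30a-3p had a log2 fold change of 0.29, miR-30d-3p 0.15 and miR-30e-3p -0.17, and none was called. miR-30f, of low level, had 17.8, 28.0 and 49.9 normalized reads in G12D, against 82.4, 69.4 and 48.6 in WT. Its log2 fold change of -1.13 ± 0.43 SE was not called (limma adjusted p = 0.0621), but it was called lower with 1 common total (-1.49, limma adjusted p = 0.0201) and without G12D replicate 3 (-1.51, limma adjusted p = 0.0440).

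The members lay mostly in the ends of transcripts. The authors annotated 171 of them (57.6%) to 3′ UTRs, against 54.7% of all annotated peaks, 78 to other exons, 25 to introns and 12 to 5′ UTRs. A further 6 and 5 were 3′ UTR and 5′ UTR entries with an asterisk that the file does not explain. Of the 5p 8-mer peaks 37 of 51 (72.5%) lay in 3′ UTRs, and of the 3p 6-mer peaks 40 of 82 (48.8%). Most members also held a match for another family: 245 of the 297 had another entry, 195 of them a 7-mer or 8-mer. Among the 51 5p 8-mer peaks this was 29, and among the 115 6-mer peaks 81. The families most often found beside miR-30 were let-7, miR-194-5p, miR-196-5p and miR-484, with 21 members each. Of all 5448 annotated peaks 584 had a let-7 entry, a larger share, so the let-7 count marks no trait of the members. The other families were not compared in this way. A read in such a peak cannot be assigned to miR-30 rather than to the other miRNA.

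The tissue was checked by its markers over all peaks. Of 23 colonocyte and goblet cell genes 22 had a peak, and of 11 smooth muscle and stromal genes and 9 blood and endothelial genes none had. A peak in Igha, the immunoglobulin heavy chain of plasma cells in the gut wall, is a member with a 3p 6-mer. It was picked out after its values were seen, and had 360, 136 and 225 normalized reads in G12D, against 29.7, 31.9 and 18.04 in WT (log2 fold change 3.06 ± 0.42 SE, limma adjusted p = 0.000293). The part of plasma cells in other results was not tested. In bulk samples such as these, fewer cells of a type and less RNA per cell cannot be told apart, and without the input libraries neither can a change in Ago2 binding and a change in the transcript.

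Across all members the G12D and WT libraries were compared with limma on log2(normalized reads + 1), a scale that understates the fold of low peaks. The fit covered every merged peak averaging 5 or more normalized reads, 4438 of 5554, with Benjamini-Hochberg adjustment over all of them. The pulldown libraries held 148927, 723937 and 247358 reads in G12D and 100978, 54401 and 148770 in WT. Of the 297 members 247 passed the filter and 50 were too low, 3 of which lay in mitochondrial transcripts with no read in any library. Limma called 85 members higher and 36 lower in G12D. Among all tested peaks it called 36.2% higher and 12.7% lower, and among tested members 34.4% and 14.6%. The median log2 fold change was 1.07 over the tested members and 1.05 over all tested peaks, and these shares and medians, close to the background, show nothing particular to the members. The 3 G12D libraries lay above the 3 WT libraries in 109 tested members and below them in 40, against 43.9% and 15.2% of all tested peaks. The authors' deposited table has 111 members higher and 42 lower at an adjusted p under 0.05, against 37.9% and 11.6% of all its peaks, and it shares 114 of the 121 calls, all in the same direction.

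The balance of rises and falls depended on the scaling. With edgeR (TMM, recovered reads) 62 members were higher and 62 lower, against 24.6% and 20.1% of all tested peaks. DESeq2 gave 63 higher and 53 lower, against 25.5% and 17.4% of all tested peaks. Under quantile normalization 54 were higher and 56 lower, against 19.7% and 18.1% of all tested peaks. The median of all tested peaks was 0.47, 0.66 and 0.16 under these scalings, so each value below is best read against the median of all peaks. Without G12D replicate 2, the deepest library, 53 members were called higher and 29 lower, against 22.0% and 9.76% of all tested peaks. Among the 57 members in both genotypes' peak lists, fitted with such peaks alone, 6 were called higher and 19 lower, against 12.7% and 25.0% of all 828 peaks so fitted.

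The 8-mer peaks differed in these values from the 7-mer and 6-mer peaks. Of the 8-mer peaks 10 were called higher and 14 lower among 58 tested (17.2% and 24.1%), with a median log2 fold change of -0.12. Of the 7-mer peaks 41 were higher and 12 lower among 99 (41.4% and 12.1%), with a median of 1.35. Of the 6-mer peaks 34 were higher and 10 lower among 90 (37.8% and 11.1%), with a median of 1.13. The 7-mer and 6-mer shares lay near the 36.2% and 12.7% of all tested peaks. The low median of the 8-mers came from the 5p seed. Its 8-mer peaks had 8 calls higher and 13 lower among 50 tested, with a median of -0.32. The 5p 7-mer-m8 peaks had 12 higher and 3 lower among 30, with a median of 1.29. The 5p 7-mer-A1 peaks had 6 higher and 6 lower among 21, with a median of -0.10, and the 5p 6-mer peaks had 9 higher and 1 lower among 24, with a median of 1.31. The 3p peaks had 50 higher and 13 lower among 122 (41.0% and 10.7%, near the shares of all tested peaks), with a median of 1.37. Only 8 3p 8-mer peaks were tested, of which 2 were higher and 1 lower.

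**Figure D2:**
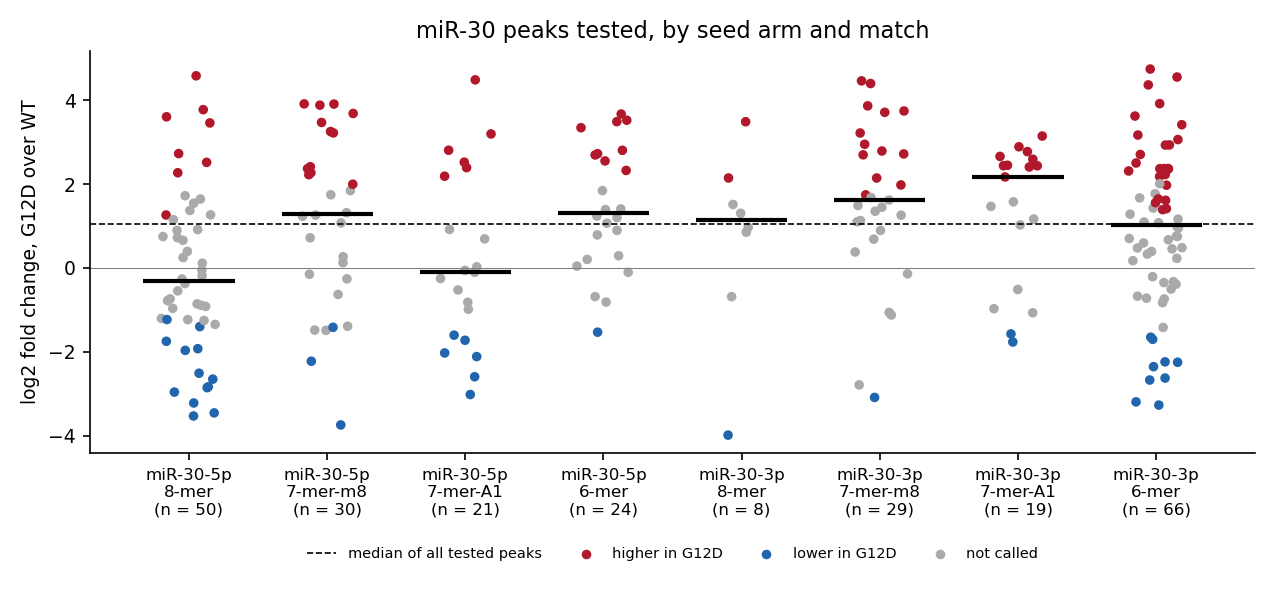
Log2 fold change, G12D over WT (y axis), of each tested miR-30 peak by seed arm and match class (x axis); red points are called higher, blue lower and grey not called, thick bars are medians, and the dashed line is the median of all tested peaks. The 5p 8-mer and 5p 7-mer-A1 peaks have medians of -0.32 and -0.10, below the dashed line at 1.05, and the other classes lie near or above it.

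The median of the 5p 8-mer peaks lay 1.37 below that of all tested peaks on the log2 scale. Over the alternatives tried, the gap lay between 0.75 below, with peaks of both lists only, and 1.78 below, with no filter. Among 30 seed families with at least 10 tested 8-mer peaks, the 5p seed of miR-30 had the lowest median. The next were miR-34-5p/449-5p at 0.04 over 12 peaks and miR-18-5p over 10, and miR-194-5p was highest at 1.73 over 108. The let-7 8-mers had a median of 0.88 over 227. This ranking was made after values were seen, and families share peaks, so it is a description without a test.

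**Figure D3:**
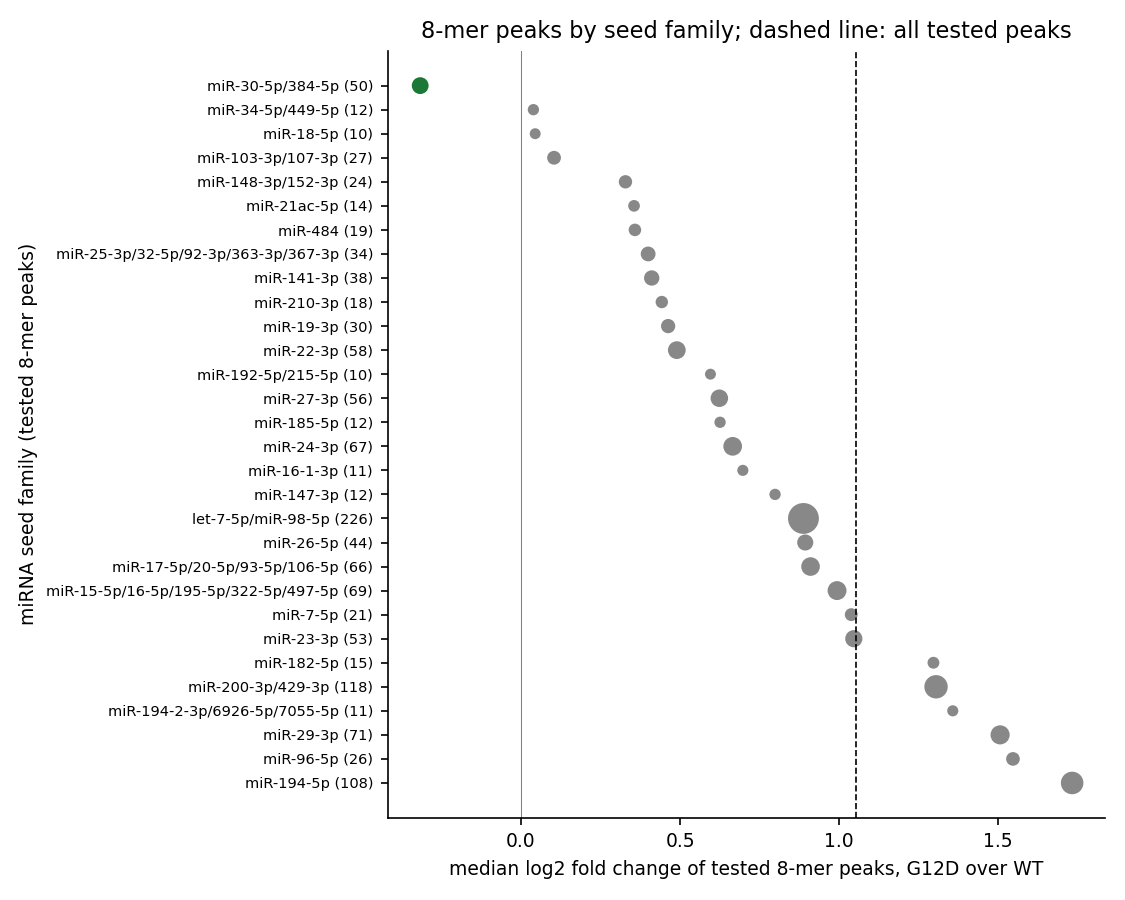
Median log2 fold change, G12D over WT (x axis), of the tested 8-mer peaks of each of 30 seed families (y axis, with the number of tested peaks, which also sets the point size); the dashed line is the median of all tested peaks. The miR-30 5p seed, in green, has the lowest median at -0.32 and miR-194-5p the highest at 1.73.

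The level of a peak and the list that it came from moved with these values. The 5p 8-mer peaks had a median level of 15.1 normalized reads, against 9.52 for all merged peaks, and 19 of the 51 (37.3%) were in both genotypes' lists, against 15.02% of all merged peaks. Among peaks averaging 20 or more normalized reads, the 5p 8-mers had 3 called higher and 8 lower of 19, with a median of -1.23, against 423 and 353 of 1329 and a median of 0.13 for all such peaks. The 8-mers of let-7, miR-194 and miR-200b/c and miR-429 at that level had medians of 0.52, 0.89 and 0.91. All 44 5p peaks at that level, the 8-mers among them, had a median of -0.81, with 8 called higher and 16 lower. The 29 3p peaks there had a median of -0.39, with 11 higher and 10 lower. Among peaks with a mean from 5 to 20, the 5p 8-mer median was 0.40 and that of all peaks 1.35. Among peaks in both lists, the 5p 8-mer median was -1.20 and that of all peaks -0.45. The other 5p peaks in both lists had a median of -0.90, with 0 called higher and 7 lower of 18. The 3p peaks in both lists had -0.60, so low values there were not particular to the 8-mers. The 5p 8-mers that only the G12D list holds had a median of 0.92, against 1.68 for all such peaks and 2.21 for the other 5p peaks of that list. In these strata the 5p 8-mers lay 0.75 to 1.36 below all peaks, while the 6 that only the WT list holds had a median of -2.91, against -2.81 for all such peaks. Lists and levels come from the same libraries as the fold changes, and a list held by 1 genotype largely sets their sign. The strata are therefore a description and no independent support for the gap. By region, the 5p 8-mers had a median of -0.55 in 3′ UTRs and -0.86 in exons, where all annotated peaks had 1.23 and 0.61.

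Other peaks of the same gene gave a comparison within the transcript, set up after values were seen. For 34 tested 5p 8-mer peaks the gene had at least 1 other tested peak with no miR-30 match. The log2 fold change of the 5p 8-mer peak was below the median of those peaks in 26 of 34 and above it in 8, with a median difference of -1.03. The other 5p peaks were below in 22 and above in 21, and the 3p peaks below in 38 and above in 40. The 8-mers of let-7 were below in 55 and above in 55, those of miR-194 in 23 and 35, and those of miR-200b/c and miR-429 in 21 and 37. The comparison was repeated with all peaks held to a mean of 20 or more normalized reads. It then left 10 5p 8-mer peaks, 5 below and 5 above, with a median difference of 0.06. The other 5p peaks were then below in 7 and above in 3 (-1.44), and the 3p peaks below in 5 and above in 5 (0.0090). At that level the 8-mers of let-7 were below in 15 and above in 11 (-0.73), those of miR-194 in 3 and 8 (0.67), and those of miR-200b/c and miR-429 in 4 and 10 (0.32).

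Of the 4 8-mer peaks with the highest mean over both genotypes, 3 fell. Those 3 rank that high through their WT libraries, so the count says nothing about 8-mers. Among all peaks averaging 20 or more normalized reads, 353 of 1329 (26.6%) were called lower. The peak in Cnnm4, which encodes a magnesium transporter, lies in an exon at chr1:36472661-36472724 (GRCm38). It had 19.6, 29.5 and 33.03 normalized reads in G12D, against 352, 188 and 490 in WT, and fell by 3.53 ± 0.41 SE on the log2 scale (limma adjusted p = 0.000178). No G12D library came near a WT library. The 3 other tested Cnnm4 peaks had log2 fold changes from -2.85 to 0.79.

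Slc36a1 encodes a proton-coupled amino acid transporter, and its 3′ UTR peak at chr11:55233779-55233837 also holds an 8-mer for miR-210-3p. It had 50.2, 85.0 and 71.8 normalized reads in G12D, against 431, 330 and 552 in WT. It fell by 2.65 ± 0.35 SE on the log2 scale (limma adjusted p = 0.000287). The 3 other tested peaks of the gene ran from 0.16 to 4.63, all above it.

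Appl2 encodes an endosomal adaptor, and its exon peak at chr10:83614204-83614258 holds no match for another family. It had 49.1, 69.5 and 111 normalized reads in G12D, against 355, 145 and 414 in WT, and fell by 1.92 ± 0.45 SE on the log2 scale (limma adjusted p = 0.00476). The highest of all 8-mer peaks, in the 3′ UTR of Ccdc71l, had 823, 498 and 801 normalized reads in G12D and 760, 548 and 623 in WT. These groups overlapped and the peak was not called, except under quantile normalization (0.59, limma adjusted p = 0.0403).

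Of the 13 5p 8-mer peaks called lower, Rasd1, a Ras-related GTPase, and Plagl2, a zinc-finger transcription factor, were among the largest falls. The Rasd1 peak had 0, 1.86 and 1.44 normalized reads in G12D, against 36.1, 8.69 and 24.5 in WT, and fell by 3.45 on the log2 scale (limma adjusted p = 0.0028). The Plagl2 peak had 0, 3.30 and 3.59 in G12D, against 23.4, 20.3 and 29.6 in WT, and fell by 3.22 (limma adjusted p = 0.00348). Both were listed in WT alone. The remaining 8 were in Nagpa, Coq3, Lmbr1l, Sec23a, Ppargc1b, Rps6ka3, Fam109a and Sbf1, and fell by 1.23 to 2.96. Sec23a, a subunit of the COPII coat of secretory vesicles, fell by 2.51 in an exon, while a second 5p 8-mer peak in its 3′ UTR had 0.92 and was not called.

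The 8 5p 8-mer peaks called higher were in Ifngr2, Fcgbp, Mboat1, Coa4, Zfr, Kctd5, Erbb2ip and Cyb561, named here as the whole group. The Fcgbp peak, in an exon of a goblet cell mucus protein, had 116, 224 and 149 normalized reads in G12D, against 34.0, 26.1 and 36.1 in WT (log2 fold change 2.27 ± 0.36 SE, limma adjusted p = 0.000595). Of the 9 tested Fcgbp peaks 6 rose and none fell. The Coa4 peak, in the 3′ UTR of a cytochrome oxidase assembly factor, had 170, 134 and 178 in G12D, against 23.4, 23.2 and 23.2 in WT (2.73 ± 0.33, limma adjusted p = 0.00022). It also holds a let-7 7-mer-m8.

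**Figure D4:**
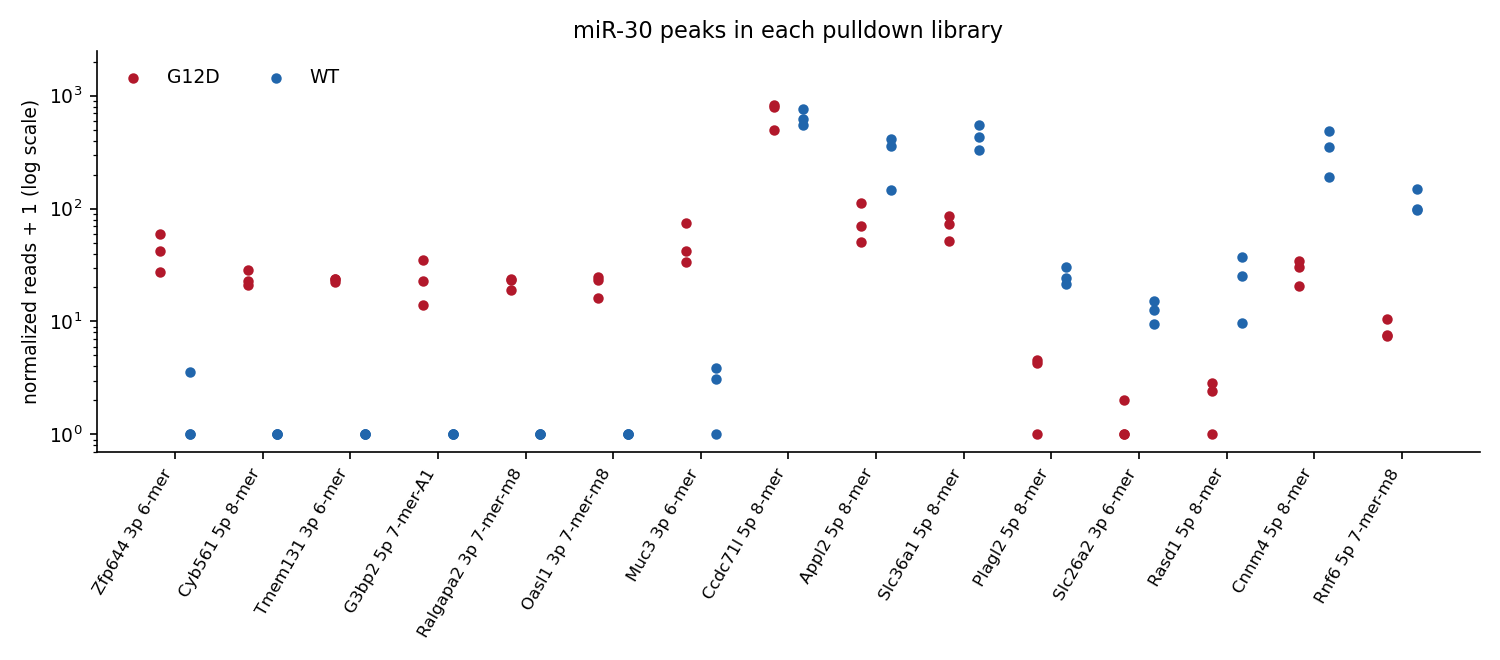
Normalized reads plus 1 on a log scale (y axis) in each pulldown library for miR-30 peaks among those that rose or fell most and the 4 highest 8-mer peaks (x axis: gene, arm and match class, ordered by fold change); G12D in red, WT in blue. The Cnnm4 and Rnf6 peaks lie far lower in all G12D libraries, most peaks at the left have no WT read, and the Ccdc71l groups overlap.

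Outside the 5p 8-mers, a large fall was in Rnf6. Rnf6 encodes a ubiquitin ligase, and its 3′ UTR peak with a 5p 7-mer-m8 had 6.54, 9.49 and 6.46 normalized reads in G12D, against 97.7, 95.6 and 147 in WT. It fell by 3.74 ± 0.40 SE on the log2 scale (limma adjusted p = 0.000127).

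Among the 7-mer peaks the highest was in Muc3, a membrane mucin of the colonocyte brush border. It holds a 3p 7-mer-m8 and a let-7 8-mer, and had 1031, 1814 and 1623 normalized reads in G12D, against 321, 194.2 and 177 in WT (log2 fold change 2.70 ± 0.39 SE, limma adjusted p = 0.00038). The 13 Muc3 peaks with no miR-30 match had a median of 3.13, and ran from 0.34 to 4.54, so the value of the member lay within the range of the other peaks of the transcript. A neighbouring Muc3 peak with a 3p 6-mer had 446 reads in the G12D libraries together and 2 in WT, a ratio of 49.6 with a 95% counting interval of 13.7 to 411. The next highest 7-mer peaks carry the 5p seed. Those in Ipmk, an inositol phosphate kinase, and Ahnak, a large scaffold protein, were not called, at 0.13 and -0.63. With edgeR the Ahnak peak was called lower (-1.10, edgeR adjusted p = 0.0241). The one in Smu1, a splicing factor, fell by 2.11 ± 0.47 SE (limma adjusted p = 0.00362).

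The 6-mer peaks with the highest level, ranked by the mean over both genotypes, did not rise. Such a rank can come through the WT libraries, as it does for Fam162a, so this says nothing about 6-mers. Among all peaks averaging 20 or more normalized reads, 423 of 1329 were called higher and 353 lower. Fam162a, a mitochondrial protein, carries a 5p 6-mer beside a miR-26-5p 7-mer-A1 and had 213, 261 and 295 normalized reads in G12D, against 703, 496 and 1143 in WT. It fell by 1.53 ± 0.39 SE on the log2 scale (limma adjusted p = 0.00712), a call that ended without G12D replicate 1 (1.40 lower, limma adjusted p = 0.05003). The Ezr peak, in a cytoskeletal linker of microvilli, was not called at -0.50. It was called lower with edgeR (-1.07, edgeR adjusted p = 0.0203) and with DESeq2 (-0.86, DESeq2 adjusted p = 0.0317). A 3p 6-mer peak in the intron of RP24-342G5.6 fell by 3.19 ± 0.42 SE (limma adjusted p = 0.000274). A second Rps6ka3 peak, with a 3p 6-mer, in an exon of the RSK2 kinase downstream of ERK, had a value of -1.70 (limma adjusted p = 0.0306) with overlapping groups. Its call ended without any library other than WT replicate 2, with a lowest adjusted p of 0.0639.

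The largest rises were in peaks with few or no WT reads, 7 of which are named. Where all WT libraries had no read, 3 counts over the 3 libraries served as a floor. Against that floor the rise was at least 15.1-fold for G3bp2, a stress granule protein, at least 12.0-fold for Tmem131, and at least 11.6-fold for Cyb561. It was at least 10.4-fold for Ralgapa2, a GTPase-activating protein for Ral, and at least 9.34-fold for Oasl1, an interferon-induced gene. Zfp644 had 305 reads in G12D and 2 in WT, a ratio of 33.9 with a 95% counting interval of 9.31 to 281. Cyb561 and G3bp2 carry the 5p seed and the others the 3p seed. All 7, the neighbouring Muc3 peak included, were in the G12D list alone, and the WT libraries were the shallower ones.

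Intronic members stood near the introns of the whole table. Of the 25, 17 were tested, 13 were called higher and 1 lower, with a median log2 fold change of 3.25. Over all annotated intronic peaks 180 were called higher and 49 lower of 275, with a median of 2.70.

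A few transcripts held several miR-30 peaks: 230 genes had 1, 26 had 2, and 5 had 3 or more. Slc26a2, a sulfate transporter abundant in colonocytes, had 5, all with the 3p seed. The peak at its 5′ UTR had 0, 1.03 and 0 normalized reads in G12D, against 8.49, 11.6 and 14.2 in WT, and fell by 3.27 on the log2 scale (limma adjusted p = 0.00122). Of the others, a 3′ UTR peak and an exon peak rose by 1.41 and 2.14 (limma adjusted p = 0.0479; adjusted p = 0.0457). Leaving out single libraries ended these calls, with adjusted p up to 0.215 and 0.167 without G12D replicate 2. With edgeR these values were 0.67 and 1.35 (edgeR adjusted p = 0.266; adjusted p = 0.171) and with DESeq2 0.89 and 1.54 (DESeq2 adjusted p = 0.241; adjusted p = 0.122), and neither call held. The call of the exon peak ended under quantile normalization too (0.92, limma adjusted p = 0.294).

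Malat1, a nuclear long noncoding RNA, had 3. A 5p 7-mer-A1 peak had 17.4, 34.5 and 24.4 normalized reads in G12D, against 53.1, 86.9 and 96.7 in WT, and fell by 1.60 (limma adjusted p = 0.0071). A 5p 6-mer peak nearby had 18.5, 18.98 and 17.95 in G12D, against 4.25, 0 and 0 in WT, and rose by 3.49 (limma adjusted p = 0.003), and a 3p 7-mer-A1 peak rose by 3.14 (limma adjusted p = 0.0086). That last call ended without any 1 of the G12D libraries (limma adjusted p = 0.0524 to 0.0578).

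Nr3c2, the mineralocorticoid receptor of the colonic epithelium, had 3 intronic 8-mer peaks. A 3p 8-mer peak rose by at least 7.93-fold against the floor, with 107 reads in G12D and 0 in WT (limma adjusted p = 0.000681). Its call ended under quantile normalization (limma adjusted p = 0.0849). Another 3p 8-mer peak rose by 2.15 on the log2 scale (limma adjusted p = 0.031), a call that ended without any 1 of 4 libraries (limma adjusted p up to 0.117, without G12D replicate 2). It was 0.58 under quantile normalization (limma adjusted p = 0.586), 2.64 with DESeq2 (DESeq2 adjusted p = 0.0717) and 1.47 with thinned reads (limma adjusted p = 0.234). The 5p 8-mer peak was not called at 1.27, but was called without WT replicate 2 (1.93, limma adjusted p = 0.0326). Ipmk had 1 of 3 peaks called higher, at 2.81 (limma adjusted p = 0.01895). This call ended without any 1 of the G12D libraries or WT replicate 3, with adjusted p up to 0.108 without G12D replicate 3. Cxadr, a tight junction receptor, had 4 peaks, of which 2 were tested and neither was called.

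Of 41 published targets 10 had any Ago2 peak and 4 a miR-30 peak, namely Twf1, Gnai2, Socs1 and Galnt7, with 6 tested peaks, 2 called higher and none lower, and a median of 0.69, against 1.05 over all tested peaks. Over all peaks of the 41 targets 7 were higher and 1 lower of 22 tested. The Twf1 peak, in an intron of the actin monomer-binding protein twinfilin, holds a 3p 7-mer-m8 and had 77.4, 113 and 147 normalized reads in G12D, against 10.6, 5.80 and 6.44 in WT (log2 fold change 3.71 ± 0.42 SE, limma adjusted p = 0.000178). The 5p 8-mer peaks in Gnai2, a G protein subunit, and Socs1, a suppressor of cytokine signalling, were not called, at -0.26 and -0.92. The 3p 8-mer peak in Galnt7, an O-glycosylation enzyme, was not called at -0.68. Gnai2 and Galnt7 each had another miR-30 peak that went the other way. That of Gnai2 had a log2 fold change of 1.64, and that of Galnt7 had 77 reads in the G12D libraries together and 3 in WT. That no miR-30 peak of these genes was lower depended on the scaling. Socs1 was called lower with edgeR (-1.56, edgeR adjusted p = 0.0182), DESeq2 (-1.37, DESeq2 adjusted p = 0.0400) and quantile normalization (-1.68, limma adjusted p = 0.0241). The 8-mer peak of Galnt7 was called lower with edgeR (-1.30, edgeR adjusted p = 0.0497) and quantile normalization (-1.35, limma adjusted p = 0.0458).

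Of 47 RAS, MAPK and PI3K genes 18 had a peak. A miR-30 peak in the insulin receptor substrate Irs2, with a 5p 6-mer, was too low to test.

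Of 37 silencing and decay genes 18 had a peak and 3 a miR-30 peak, of which 1 was called. Over all peaks of these genes 23 were higher and 0 lower of 50 tested. Btg2, an antiproliferative cofactor of deadenylation, had 20.7, 28.3 and 15.8 normalized reads in G12D, against 2.12, 0 and 6.44 in WT, at a 3p 7-mer-m8 (log2 fold change 2.95 ± 0.76 SE, limma adjusted p = 0.00822). Without G12D replicate 2 its adjusted p was 0.0622. The helicase Ddx6, with a 5p 7-mer-m8, and the deadenylase Cnot6 were not called, at 1.32 and 1.26. The Ddx6 peak was called higher with a pseudocount of 5 (1.23, limma adjusted p = 0.0487), 1 common total (1.51, limma adjusted p = 0.0418) and quantile normalization (1.38, limma adjusted p = 0.0409). It was also called without G12D replicate 1 (1.92, limma adjusted p = 0.0273) and without WT replicate 3 (1.78, limma adjusted p = 0.0435), and Cnot6 was called without WT replicate 2 (2.05, limma adjusted p = 0.0435). Of 39 ubiquitin and SUMO genes Socs1 and Ube2h had miR-30 peaks, none called in the reported fit, and of 23 autophagy genes none had one. Over all peaks of the ubiquitin and SUMO genes 3 were higher and 2 lower of 13 tested. Of the colonocyte and goblet cell markers 5 had miR-30 peaks, namely Fcgbp, Hnf4a, Lgals4, Muc3 and Slc26a3, with 5 of 7 tested peaks called higher and none lower, and a median of 2.70. Over all peaks of those markers 63 were higher and 14 lower of 136 tested.

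The members together held 5.46 ± 0.79% of the reads in merged peaks in G12D and 4.52 ± 0.75% in WT (SD, n = 3 each). The 5p 8-mer peaks held 1.17%, 1.23% and 1.23% in the G12D libraries, against 1.51%, 1.41% and 1.80% in the WT libraries, without overlap. The WT excess lay in the peaks of Cnnm4, Slc36a1 and Appl2 described above. These peaks are among the highest of the 5p 8-mer set and weigh heavily on a share of reads, so this order does not describe the set as a whole. The 3p peaks held 2.78 ± 0.46% in G12D and 1.44 ± 0.17% in WT. One peak weighed heavily on this: without the highest Muc3 peak the 3p share was 1.86 ± 0.19% in G12D and 1.32 ± 0.18% in WT, and the share of all members 4.54% in G12D and 4.396% in WT. Of reads in 3′ UTR peaks alone, members held 6.81% in G12D and 8.23% in WT, the opposite order. For comparison, let-7 peaks held 13.8 ± 0.9% in G12D and 9.96 ± 0.29% in WT.

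**Figure D5:**
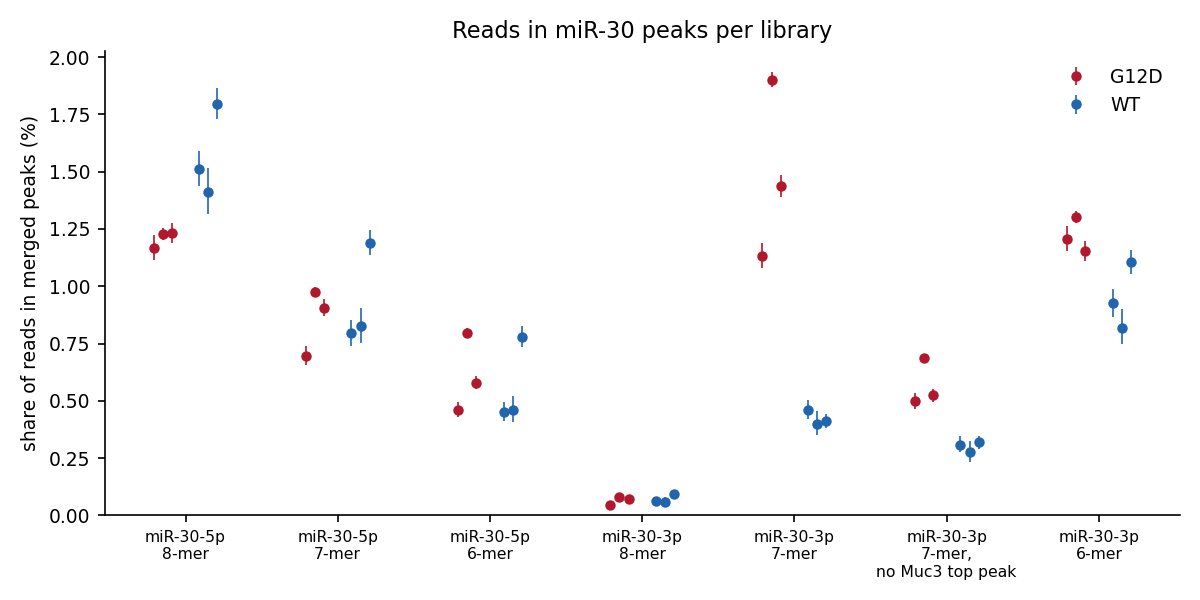
Share of the reads in merged peaks (y axis, percent) that fell in miR-30 peaks of each arm and match class (x axis) in each library, with Wilson 95% intervals for counting error; G12D in red, WT in blue. The 5p 8-mer shares lie lower in all G12D libraries, at 1.17% to 1.23% against 1.41% to 1.80% in WT, an order that rests on the Cnnm4, Slc36a1 and Appl2 peaks. The 3p 7-mer shares lie higher, less so without the highest Muc3 peak.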

How the data were processed

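miRNA and pulldown mRNA libraries of G12D and WT colonic epithelium were analysed, 12 of 18 in the series. STAR 2.5.2b and DESeq2, with mm10 and GRCm38, are named in the submitters' processing notes; the peak caller is not given in the sources used here. The deposited values are a normalized signal, reads per miRNA or merged peak divided by 1 factor per library, and 100% of values above 0 were whole reads within 0.01 after division by each library's step. Peak columns show genotype and replicate but no library type, and were read as the pulldown libraries. Seed matches and regions are the authors', per the file headers, as are the score of each listed peak, which was not tested, and the log2 fold changes and adjusted p-values of the deposited differential table. Coordinates count from 1 (GRCm38); a peak is in a genotype's list when at least 1 base overlaps on its strand.

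The test was limma 3.58.1 with a variance trend on log2(value + 1), Benjamini-Hochberg threshold 0.05, for peaks with a mean of at least 5 and miRNAs of at least 10, checked on simulated data. edgeR 4.0.16 and DESeq2 1.42.0 on the recovered reads were alternatives, beside those in the closing section; thinning reads to equal depth was added after the data were seen. Shares of the authors' reads carry Wilson 95% intervals. Intervals and floors cover counting error only. Peaks named were the 8 largest rises and 6 largest falls without overlap, the 4 highest per match class, the highest of each listed gene, and genes with 3 or more miR-30 peaks; others were added after their values were seen. A few peaks that this rule takes are not reported here. Members and lists were chosen with earlier results of these data known.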

Additional observations from a re-analysis of the deposited data

How the results depend on the processing

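The count of miR-30 peaks called higher, 85, was 19 with a mean of at least 20, 54 with quantile normalization and 6 with peaks of both lists, and 53 to 89 with single libraries left out. The count called lower, 36, was 56 with quantile normalization, 62 with edgeR and 19 with peaks of both lists, and 29 to 45 with single libraries left out. Thinned reads gave 66 higher and 30 lower of 247 tested members, against 1172 and 477 of all 4438 tested peaks. Without WT replicate 1, 89 of these members were higher, against 1630 of all tested peaks. Without WT replicate 2, 45 were lower, against 643 of all tested peaks. With a mean of at least 20, the median log2 fold change was -0.63 over 73 members and 0.13 over all 1329 peaks. A higher mean and peaks of both lists leave fewer peaks to test; for the other settings the cause was not tested. The 1 miRNA called higher became 0 with the same total per library and without the variance trend, and 1 to 2 with single libraries left out, while the count called lower, 0, became 1, miR-30f, with the same total and 0 to 1 with single libraries left out.

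The mean share of reads in members was 6.44% in G12D and 6.39% in WT without rRNA and snRNA peaks, 6.81% and 8.23% in 3′ UTR peaks, and 3.62% and 3.00% with 7-mer and 8-mer sites only. It was 5.04% to 5.83% in G12D and 4.09% to 4.79% in WT with single libraries left out.

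Of 45 named peaks tested, 23 kept direction and call under every alternative run and 5 changed sign at least once, none of them called in the reported fit; the cause was not tested. The Ipmk 3′ UTR 7-mer-m8 peak was -0.53 with edgeR, -0.32 with DESeq2, -0.16 without G12D replicate 3, and -0.25 to 0.54 over the single libraries left out. Ccdc71l was -0.40 with edgeR, -0.19 with DESeq2, and -0.013 to 0.35 with single libraries left out. The Cxadr 5′ UTR peak was -0.87 with quantile normalization, -0.51 with edgeR, -0.37 with DESeq2 and -0.34 to 1.04 with single libraries left out, and the Cxadr 3′ UTR peak -0.011 with edgeR. Cnot6 was -0.25 with quantile normalization. With the same total per library, miR-30a-3p was -0.070, miR-30a-5p -0.10, miR-30d-3p -0.21 and miR-30e-5p -0.11. With quantile normalization miR-30a-5p was -0.056 and miR-30e-5p -0.20. miR-30d-3p was -0.14 with edgeR, -0.00031 without G12D replicate 3 and -0.18 to 0.51 over the single libraries left out, and miR-30e-3p was -0.52 to 0.054.

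Libraries of equal replicate number did not deviate together (correlations of 0.0415, -0.0357 and -0.0076 for peaks), so the numbers do not pair them. With the replicate block 86 members were higher and 39 lower, and 0 miR-30 miRNAs were higher, with an adjusted p of 0.0529 for miR-30b-5p and of 0.0169 for Ddx6. The WT pulldown depth of 54401 to 148770 reads limits what can be seen of peaks that WT holds at low level.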
